A study of Mus musculus with 6 samples.

Results

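Genes of the hepatic stellate cell and of the extracellular matrix were followed in mouse liver without SelO, a selenoprotein of the mitochondrion encoded by Selenoo. The members were 34 genes chosen by name, and all 34 were found by their symbol among the 16140 genes of the table. They were taken apart by role into 12 genes of stellate cell identity, 5 genes of activation and 17 genes of the matrix. The controls were 3 livers of genotype Selofl/fl, which carry floxed Selenoo alleles and no Cre and received no treatment. The knockouts were 3 livers of genotype Selofl/fl Alb-Cre, in which the same floxed alleles are cut by Cre. All mice ate a normal diet, and the sources used here give no age, sex or strain. The albumin promoter drives Cre in hepatocytes, the neighbours of the stellate cells, and is not known to act in stellate cells themselves. The controls carry no Cre, so an effect of Cre and an effect of Selenoo loss cannot be told apart.

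Hepatic stellate cells lie between the hepatocytes and the sinusoidal endothelium and store vitamin A as retinyl esters. In a healthy liver they are quiescent. After injury they turn into contractile myofibroblasts that make smooth muscle actin, fibrillar collagens and inhibitors of matrix breakdown, and this is the main source of scar in liver fibrosis. Healthy liver also holds smooth muscle and fibroblasts around its portal vessels, which express several of the same genes, and endothelial cells that make basement membrane.

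Library totals of estimated counts lay between 15550289 and 18680195. Selenoo, the targeted gene, had 1413, 1630 and 1852 counts in control livers against 117, 163 and 135 in knockout livers, as the labels say. Of 9 hepatocyte markers, the summed level, most of it Alb, was 143120 CPM (counts scaled to library size) or more in each library. Of all genes, 12173 had enough counts to be tested, and edgeR's quasi-likelihood test called 181 of them at an adjusted p under 0.05, 94 higher and 87 lower in knockout livers. With limma on log2(FPKM + 0.1), 52 genes were called higher and 74 lower. Nothing in the labels states that the livers came from separate mice, and the p-values then rest on the spread among these samples, which may be technical. Transcripts of different length were not sampled alike. Across genes, the deviation of log2 CPM from the mean of the 6 libraries correlated with transcript length at Spearman's rho of -0.295, -0.219 and 0.271 in control replicates 1, 2 and 3 and 0.265, 0.085 and 0.0879 in the knockouts.

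No member passed the test for a change. Of the 34, 32 had enough counts to be tested, and edgeR's test called none of the 32, against 1.49% of all tested genes (0.772% higher and 0.715% lower in knockouts). At an unadjusted p under 0.05 there were 2 members, Des and Acta2, both lower in the knockouts, which is 6.25% of the 32 against 18.5% of all tested genes (9.27% higher and 9.26% lower). DESeq2 also called none, against 5.26% of the genes to which it gave an adjusted p. None of the 34 members had a q value under 0.05 in the authors' deposited table, against 3.47% of its genes, and 4 had a p under 0.05 there, with a smallest q of 0.198, for Acta2. In each of the 32 tested genes the CPM of the knockout and control livers overlapped, whereas the groups did not overlap in 25.2% of all tested genes (13.3% higher and 11.9% lower). The median log2 fold change of the 32 was 0.03 and that of all tested genes was -0.02.

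How large a change the data leave possible differed between genes. The 95% interval of the fold change lay within 2-fold in either direction for 27 of the 32 members, against 78.8% of all tested genes. It lay within 1.5-fold for 15 members (46.9%), against 41.3% of all tested genes. The narrowest interval was that of Timp3, an inhibitor of matrix metalloproteinases bound to the matrix, whose fold of 1.01 had an interval of 0.837 to 1.22. The 5 genes whose interval reached past 2-fold were Des, Acta2, Tagln, Vim and Lum.

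**Figure D1:**
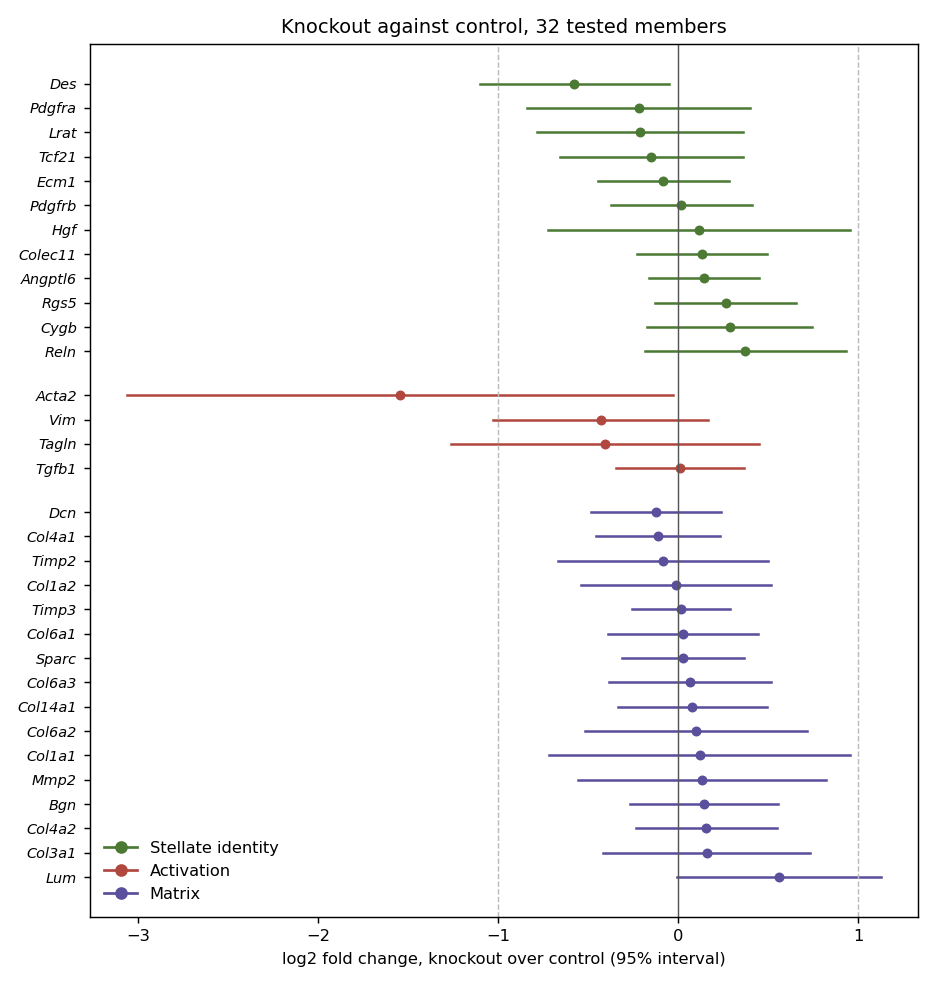
Log2 fold change of the 32 tested members, knockout over control (x axis), with the 95% interval of edgeR's fit as a line and the estimate as a point; dashed lines mark a 2-fold change. Every interval except those of Des and Acta2 crosses 0, and that of Acta2 is the widest, from -3.06 to -0.03.

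The members ranged over more than 3 orders of magnitude when compared per transcript length, in TPM, a level scaled to transcript length and library size. The most abundant were Ecm1, a secreted glycoprotein of the matrix, at 144 ± 37.0 TPM in controls and 136 ± 15.61 in knockouts (SD, n = 3), and Dcn, the proteoglycan decorin that binds collagen fibrils, at 142 ± 23.3 and 132 ± 14.6. These neighbours in the order did not differ beyond their spread. Next came Bgn, encoding biglycan, at 61.6 ± 15.1 and 67.8 ± 12.9 TPM, followed by Colec11, a collectin of the lectin complement pathway, and Sparc, a collagen-binding glycoprotein. Near the other end stood some of the genes that mark scar formation, beside others such as Pdgfra and Col6a3. The activation genes Vim, Tgfb1 and Tagln ranked higher, with means over all libraries of 25.1, 12.2 and 5.10 TPM. Col1a1, the main chain of scar collagen, had 1.53 ± 1.03 TPM in controls and 1.67 ± 0.22 in knockouts, Acta2, the smooth muscle actin of myofibroblasts, 1.84 ± 1.64 and 0.60 ± 0.40, and Timp1, the inhibitor that activated stellate cells release, 0.54 ± 0.53 and 0.51 ± 0.30. The lowest was Lox, the enzyme that cross-links collagen, at 0.11 ± 0.03 and 0.02 ± 0.01 TPM. All 9 collagen genes together summed to 22.4, 37.8 and 33.0 TPM in control livers against 33.7, 30.8 and 31.2 in knockout livers.

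**Figure D2:**
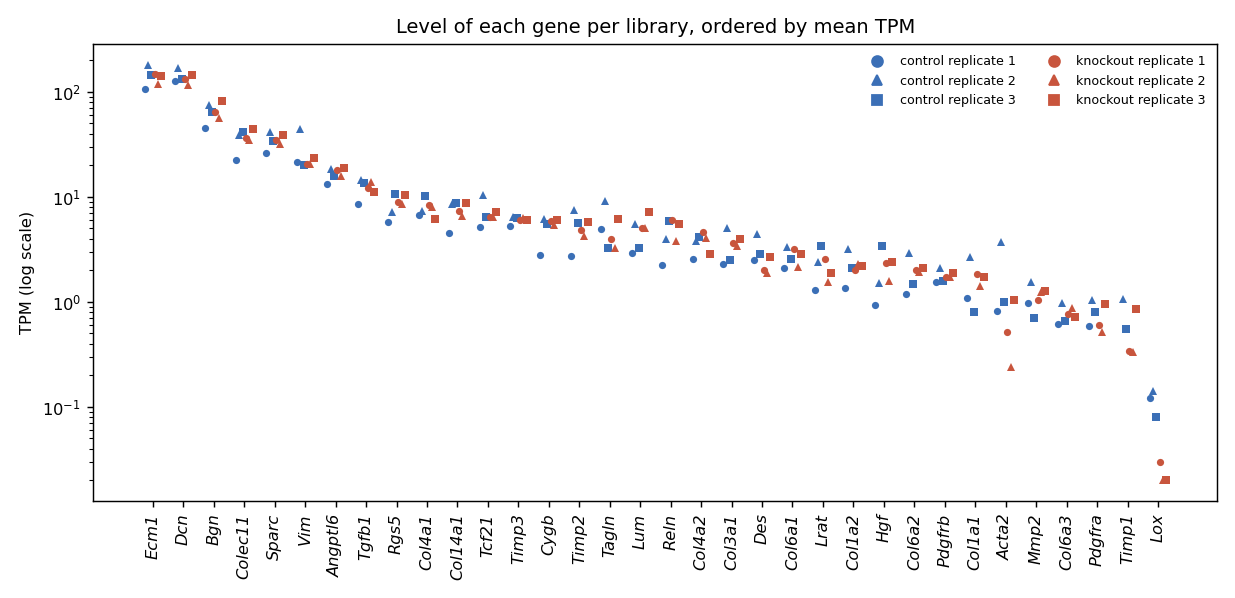
TPM of each of the 34 genes (log scale) in the 3 control and 3 knockout libraries, ordered by mean TPM; Timp1 was listed at 0 in control replicate 1, which has no point. Ecm1 and Dcn lead, and the activation genes Acta2 and Timp1 and the collagen gene Col1a1 lie near the bottom, as do Pdgfra and Col6a3. The activation genes Vim, Tgfb1 and Tagln lie higher.

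None of the 12 stellate identity genes was called. Lrat, the acyltransferase that makes retinyl esters and the most specific marker of the cell in liver, had 6.37, 9.30 and 12.8 CPM in control livers against 9.99, 6.57 and 8.07 in knockout livers. All knockout values lay inside the range of the controls, and the log2 fold change was -0.21 ± 0.25 (SE; edgeR's test, adjusted p = 0.68). The direction rested on 1 liver, since it was 0.06 without control replicate 3. Reln, the secreted glycoprotein reelin that stellate cells make, had 24.7, 34.6 and 49.4 CPM in control livers against 52.9, 35.6 and 52.5 in knockout livers. Knockout replicates 1 and 3 were above every control and knockout replicate 2 lay inside the control range, with a fold of 1.295 and a 95% interval of 0.879 to 1.91. Reln was the identity gene with the largest positive estimate, 0.37 on the log2 scale, which became 0.16 when control replicate 1 was left out and 0.66 when control replicate 3 was.

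Des had the smallest p of the identity genes. It encodes desmin, the intermediate filament of muscle and of rodent stellate cells, and lies on chromosome 1 (GRCm38, plus strand, 75360292 to 75368579). Its CPM were 6.78, 9.56 and 5.86 in control livers against 4.30, 4.34 and 6.25 in knockout livers. Knockout replicates 1 and 2 were below every control, and knockout replicate 3 was above control replicate 3. The log2 fold change was -0.58 ± 0.23 (SE; edgeR's test, unadjusted p = 0.0341, adjusted p = 0.228). Without control replicate 2, the highest library, it was -0.35.

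The platelet-derived growth factor receptors drive stellate cell growth and migration. Pdgfrb, the receptor of stellate cells and pericytes, had 7.58, 8.37 and 5.96 CPM in control livers against 6.72, 7.37 and 8.07 in knockout livers. Its fold of 1.01 had an interval of 0.771 to 1.33. Pdgfra, the receptor shared with fibroblasts, had 3.56, 5.06 and 3.73 CPM against 2.90, 2.69 and 5.06, with the highest control and the highest knockout alike. Both receptors thus overlapped between the groups.

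Secreted and cytoplasmic stellate products overlapped between the groups as well. Hgf, the growth factor that stellate cells supply to hepatocytes, had 2.08, 2.89 and 6.38 CPM in control livers against 4.41, 3.14 and 4.89 in knockout livers. Its controls differed by 3.07-fold among themselves, the widest range of any identity gene, and its log2 fold change, 0.12, became 0.73 when control replicate 3 was left out and turned negative when control replicate 1 or 2 or knockout replicate 3 was. Cygb, encoding the oxygen-binding protein cytoglobin, had 5.57, 9.77 and 8.35 CPM against 9.35, 9.26 and 10.4. Rgs5, a regulator of G protein signalling in pericytes, had 21.1, 21.2 and 30.03 CPM against 26.1, 27.2 and 33.6. The fold of Cygb was 1.22 (interval 0.887 to 1.67), and the interval of Rgs5 ran from 0.913 to 1.58. Angptl6, an angiopoietin-like secreted protein, had 16.9, 19.0 and 15.7 CPM in control livers against 18.4, 17.7 and 20.9 in knockout livers. Tcf21, a transcription factor of stellate cells, Colec11, Ecm1 and Angptl6 had log2 fold changes between -0.15 and 0.14, and the adjusted p in edgeR's test of all 12 identity genes was at least 0.228.

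Of the 12 identity genes 7 had a positive and 5 a negative log2 fold change, and the median was 0.07. Leaving out control replicate 1 made it -0.07, leaving out knockout replicate 3 made it -0.03, and leaving out control replicate 2 made it 0.13. In bulk tissue, fewer cells of a type and less RNA per cell cannot be told apart, and the levels here stand for both together.

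No activation gene was called. Acta2 had the lowest estimate of the 32 tested members. Acta2, on chromosome 19 (GRCm38, minus strand, 34240336 to 34255585), had 27, 129 and 24 counts in control livers against 17, 8 and 35 in knockout livers. In CPM these were 1.81, 6.67 and 1.24 against 0.91, 0.46 and 1.99. Control replicate 2 stood far above the other 5 libraries, and knockout replicate 3 was higher than control replicates 1 and 3. The log2 fold change was -1.54 ± 0.67 (SE; edgeR's test, unadjusted p = 0.0467, adjusted p = 0.262). Without control replicate 2 it was -0.43 (adjusted p = 0.74), and over the other libraries left out 1 at a time it ran from -2.23 (knockout replicate 3) to -1.17 (knockout replicate 2). Acta2 shares much of its coding sequence with other actin genes, among which the counting may divide reads.

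Tagln and Vim had the same shape. Tagln, encoding the actin-binding protein transgelin of contractile cells, had 6.31, 9.46 and 3.16 CPM in control livers against 3.98, 3.54 and 6.76 in knockout livers. Its log2 fold change, -0.41 ± 0.38 (SE), became 0.02 when control replicate 2 was left out, -0.23 for knockout replicate 2, and -0.73 and -0.74 for control replicate 3 and knockout replicate 3. Vim, the intermediate filament of mesenchymal cells and also of leukocytes and endothelium, had 32.9, 54.2 and 23.2 CPM against 24.4, 26.9 and 30.5. Its log2 fold change, -0.43 ± 0.27 (SE), became -0.04 without control replicate 2 and -0.68 without control replicate 3. In Acta2, Tagln and Vim alike the highest library was control replicate 2, and control replicate 3 was the lowest control.

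Control replicate 2 did not stand apart in Tgfb1, and Timp1 was near the limit of detection. Tgfb1, the cytokine that drives collagen synthesis in stellate cells, had 15.8, 21.5 and 19.1 CPM in control livers against 17.6, 21.8 and 17.6 in knockout livers, a fold of 1.01 with an interval of 0.788 to 1.29. Timp1 had 0, 10 and 5 counts in control livers against 3, 3 and 8 in knockout livers and was too low to be tested. Its ratio of summed counts, control over knockout, was 1.07, with an exact 95% interval of 0.484 to 2.40 that covers counting error only. A count of 0 in control replicate 1 allows up to 3 counts, or 0.201 CPM. Of the 4 tested activation genes 3 were negative and the median was -0.42, which became -0.01 when control replicate 2 was left out, -0.71 when control replicate 3 was, and -0.63 when knockout replicate 3 was.

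The promoter of Acta2 is shown because it carries elements known to drive smooth muscle actin. Serum response factor binds CArG boxes, searched here as CC and GG with 6 letters between them, at least 5 of which are A or T, a form that reads the same on both strands. In the RefSeq window from 250 bases before to 50 after the start (GRCm38.p6), Acta2 had 2 such boxes, 84 and 34 bases before that start. Each is printed 5′ to 3′ on the strand of the gene, with the box in capitals.
Acta2 distal box, chr19:34255438-34255467, minus strand: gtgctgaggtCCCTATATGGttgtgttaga
Acta2 proximal box, chr19:34255388-34255417, minus strand: cgtctttgctCCTTGTTTGGgaagcgagtg
GENCODE M21 places a start further upstream, so that both boxes lie inside its first untranslated exon of Acta2. At least 1 box was found in 9.98% and at least 2 in 0.822% of the 32851 windows of the table. Of the 34 members 25 had a window, and 5 of these had a box: Acta2 and Timp3 with 2 each, and Lrat, Col1a2 and Col6a3 with 1. In that order their log2 fold changes were -1.54, 0.02, -0.21, -0.01 and 0.06. A match describes letters and not binding.

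**Figure D3:**
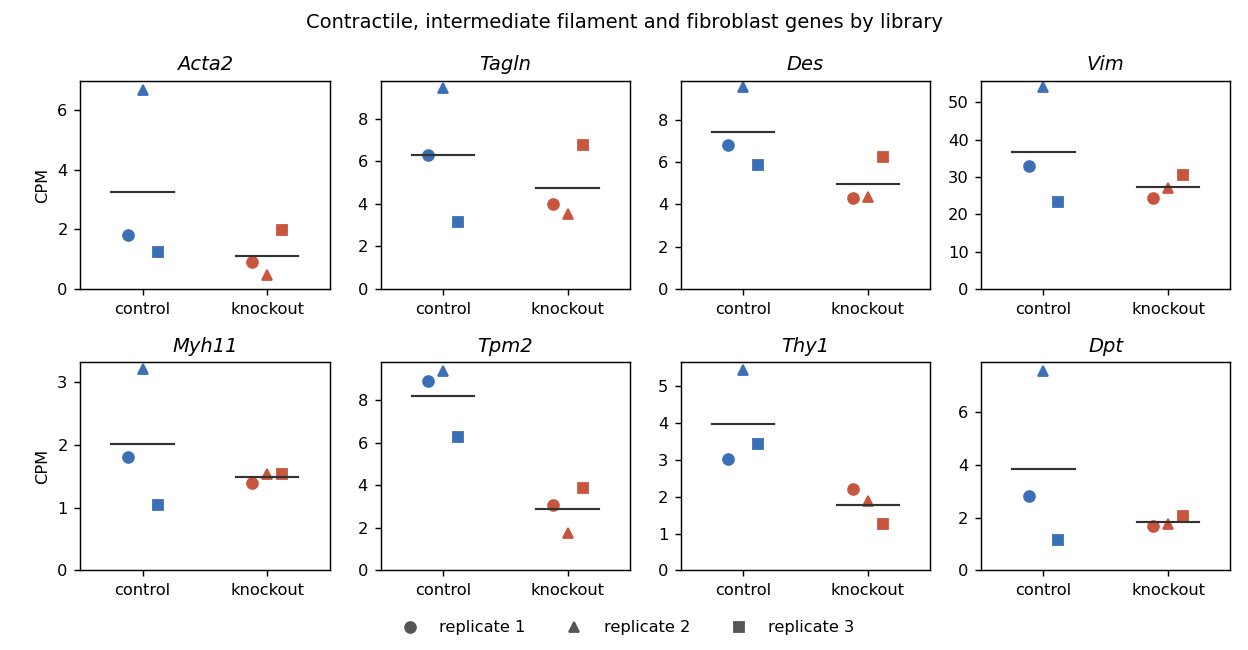
CPM of 4 members (top) and of 4 picked from the 8 tested smooth muscle and portal fibroblast markers (bottom) in each library, with bars at the group means (n = 3 each). Control replicate 2 is the highest library in all 8 panels, and only in Tpm2 and Thy1 do all knockouts lie below all controls. Of the markers not shown, Cald1, Cd34 and Entpd2 had positive log2 fold changes (0.06, 0.15 and 0.02) and Mfap4 a negative one (-0.12). Control replicate 2 was not the highest library in Cald1.

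No fibrillar collagen gene was called, and the controls were widely spread. Col1a1 had 5.91, 11.8 and 3.32 CPM in control livers against 7.95, 6.69 and 8.24 in knockout livers. The controls differed by 3.55-fold among themselves and the knockouts by 1.23-fold, and all knockouts lay inside the control range. The fold of 1.09 had an interval of 0.608 to 1.94, and the log2 fold change, 0.12, became 0.74 when control replicate 2 was left out and -0.22 when control replicate 3 was. Col1a2, the partner chain in type I collagen, had 6.37, 12.1 and 7.68 CPM against 7.52, 9.43 and 9.09, a fold of 0.991 with an interval of 0.688 to 1.43. Col3a1, the fibrillar collagen laid down beside type I, had 11.7, 20.8 and 9.70 CPM against 14.7, 15.03 and 17.5, a fold of 1.12 with an interval of 0.748 to 1.66. Again control replicate 2 was the highest library in all 3 genes. The TPM ratio of Col1a1 to Col1a2 was 0.806, 0.854 and 0.381 in control livers against 0.925, 0.620 and 0.791 in knockout livers, so the low value of control replicate 3 in Col1a1 was not shared by its partner chain.

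Basement membrane collagen IV behaved otherwise. Col4a1 had 40.6, 36.3 and 47.2 CPM in control livers against 40.4, 42.3 and 32.2 in knockout livers, and control replicate 2 was its lowest control. Col4a2 had 15.1, 17.9 and 18.8 CPM against 22.0, 20.97 and 14.8. Knockout replicate 3 was the lowest of the 6 libraries in both. Their folds were 0.926 (interval 0.729 to 1.18) and 1.11 (interval 0.849 to 1.46). The TPM ratio of Col4a1 to Col4a2 was 2.35 ± 0.34 in controls and 1.96 ± 0.17 in knockouts (SD, n = 3), with overlapping values.

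The genes of both type IV chains stand head to head on chromosome 8 and their starts overlap, which is why this stretch is shown. In RefSeq, Col4a2 starts at 11312805 on the plus strand and Col4a1 at 11312826 on the minus strand of GRCm38.p6. The gene coordinates deposited with the counts put the Col4a1 start at 11312889, which makes the overlap longer. The 22 bases that both first exons share by the RefSeq starts are in capitals, read on the plus strand.
Col4a1 and Col4a2 starts, chr8:11312801-11312830: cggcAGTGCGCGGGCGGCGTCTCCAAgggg
The sources used here do not name the strand setting of the counting. Without strand, a read lying wholly within the overlap could not be assigned to either gene, while a read running beyond it could.

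Collagen VI forms microfilaments around stellate cells and fibroblasts. Col6a1 had 7.52, 9.51 and 6.95 CPM in control livers against 8.97, 6.63 and 8.81 in knockout livers. Col6a2 had 4.09, 8.27 and 4.05 CPM against 5.53, 5.77 and 6.36. Control replicate 2 stood above the other libraries in both, and the log2 fold change of Col6a2, 0.10, was 0.53 without that library and turned negative when either other control was left out (-0.06 for replicate 1 and -0.09 for replicate 3). Col6a3, at 4.10 to 6.15 CPM, and Col14a1, a collagen that coats fibrils, at 26.8 to 44.3 CPM, had folds of 1.04 and 1.06.

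The small leucine-rich proteoglycans bind collagen fibrils. Lum, encoding lumican, lies on chromosome 10 (GRCm38, plus strand, 97565501 to 97572703) and had the smallest p of the matrix genes. Its CPM were 5.10, 7.80 and 4.36 in control livers against 7.04, 7.601 and 10.9 in knockout livers. Each knockout was above control replicates 1 and 3, while control replicate 2 was above knockout replicates 1 and 2. The log2 fold change was 0.56 ± 0.25 (SE; edgeR's test, unadjusted p = 0.0532, adjusted p = 0.278). Leaving out control replicate 2 made it 0.85, and leaving out knockout replicate 3 made it 0.35. Dcn had 195, 211 and 156 CPM against 163, 156 and 197, a fold of 0.918 with an interval of 0.715 to 1.18. Bgn had 95.2, 126 and 101 CPM against 107, 102 and 148, a fold of 1.10 with an interval of 0.830 to 1.47. Dcn and Bgn thus overlapped between the groups.

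Enzymes of the matrix and their inhibitors gave no call. Mmp2, a gelatinase that stellate cells secrete, had 2.62, 3.36 and 1.45 CPM in control livers against 2.26, 2.91 and 2.95 in knockout livers. Timp2, which binds and helps to activate it, had 8.86, 19.6 and 13.95 CPM against 12.4, 11.7 and 16.02. Sparc had 47.8, 62.5 and 48.5 CPM against 50.3, 50.3 and 61.1. Timp3 lay between 20.4 and 22.9 CPM in all 6 libraries. The only member whose groups did not overlap was Lox, with 7, 9 and 5 counts in control livers against 2, 1 and 1 in knockout livers, on chromosome 18 (GRCm38, minus strand, 52516060 to 52529867). It was too low to be tested with the others. The ratio of its summed counts, 21 in control and 4 in knockout, was 5.27, with an exact 95% interval of 1.78 to 21.1 that covers counting error only. Without the filter on low counts edgeR's test gave it an adjusted p of 0.144.

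Of the 16 tested matrix genes 12 had a positive and 4 a negative log2 fold change, and the median was 0.07. Leaving out control replicate 2 made it 0.23, and leaving out control replicate 3 made it -0.06. Leaving out control replicate 1 or knockout replicate 3 brought it to 0.00053 and -0.000034. At an unadjusted p under 0.05 in edgeR's test there was no matrix gene among the 16.

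Libraries of the same genotype differed in these genes. Control replicate 2 had the highest CPM in 18 of the 32 tested members (56.2%), a place it held in 16.2% of all tested genes, and the lowest CPM in none of the 32. It led 5 of 12 identity genes, 3 of 4 activation genes and 10 of 16 matrix genes. Control replicate 1 was the highest library in none of the 32 members and the lowest in 12, although it was the highest in 27.3% and the lowest in 28.0% of all tested genes. Control replicate 3 was the lowest in 11. Knockout replicate 3 was the highest in 7 (21.9%), against 11.3% of all tested genes. The summed CPM of the members was 1098 in control replicate 2 and 1051 in knockout replicate 3, against 851 to 907 in the other 4 libraries. In the identity genes the median deviation from the control mean was larger in knockout replicate 3 (0.30 on the log2 scale) than in control replicate 2 (0.18). The spread among controls exceeded that among knockouts in 25 of the 32 (78.1%), and in 70.3% of all tested genes. Members' counts made up 0.0816%, 0.118% and 0.0911% of the control libraries and 0.0915%, 0.0842% and 0.1005% of the knockout libraries. The knockout shares thus lay within the range of the controls.

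**Figure D4:**
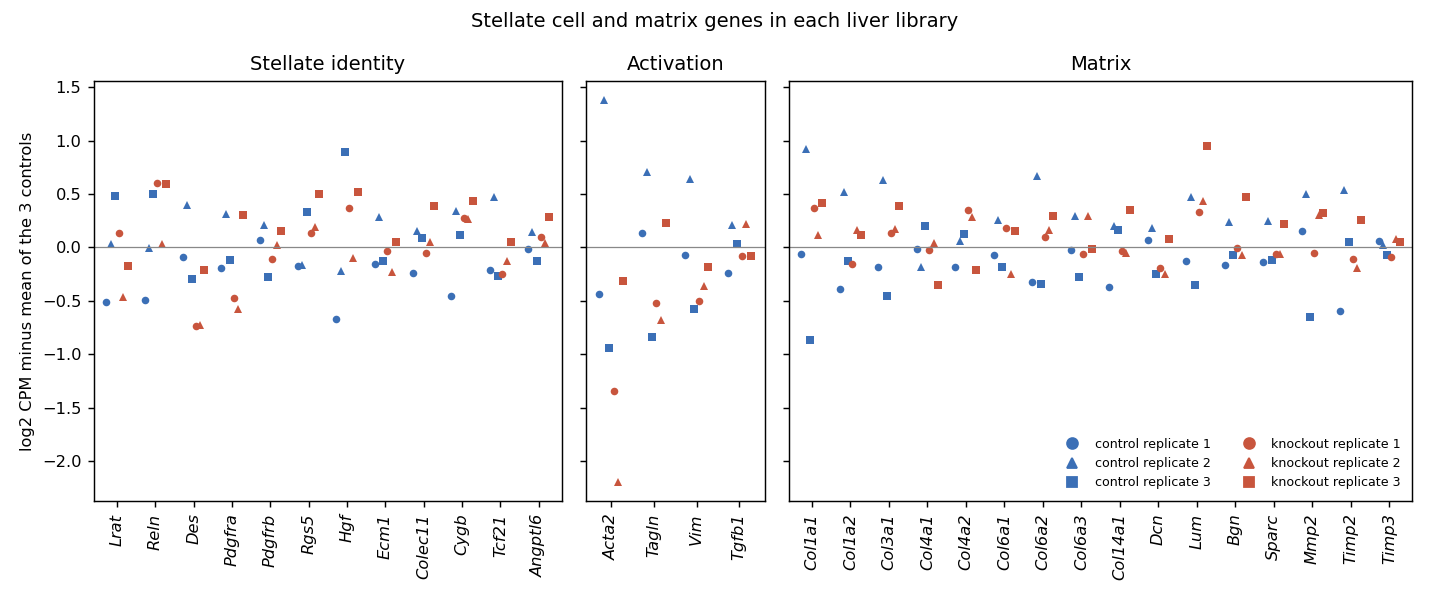
Log2 CPM (prior count 2) of the 32 tested members in each library, minus the mean of the 3 controls. Control replicate 2 (blue triangles) lies at the top in most activation and fibrillar collagen genes, while controls and knockouts overlap in every gene.

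**Figure D5:**
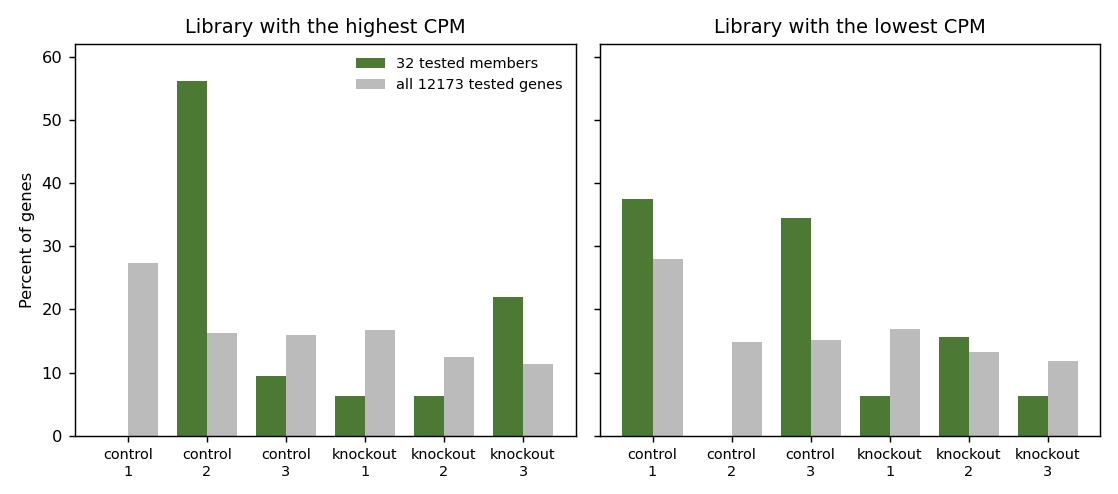
Percent of the 32 tested members (green) and of all 12173 tested genes (grey) for which each library has the highest (left) or lowest (right) CPM. Control replicate 2 is highest in 56.2% of members and lowest in none.

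Markers of some other cells were also highest in control replicate 2, which leads 16.2% of all tested genes. Of 8 tested markers of portal fibroblasts and smooth muscle, control replicate 2 was highest in 7. Singled out after their values were seen, these include Myh11, the smooth muscle myosin, at 3.20 CPM against 1.04 to 1.81 in the other libraries, and Dpt, a fibroblast matrix protein, at 7.54 against 1.14 to 2.82. The sum of the 15 markers in the table was 140 to 180 CPM in controls and 143 to 185 in knockouts, most of it Cald1. The smooth muscle genes Cnn1 and Actg2 had at most 0.83 and 0.52 CPM, and Cnn1 was at 0 counts in knockout replicates 2 and 3. Control replicate 2 was also highest in 7 of 9 tested leukocyte and 6 of 11 Kupffer cell markers and had the lowest summed hepatocyte markers, 143120 CPM against 160130 to 186010 in the other libraries. Alb alone made up 101590 CPM of that sum, and of the other hepatocyte markers only Serpina1a was lowest in control replicate 2. The median deviation of the hepatocyte markers from the control mean was -0.11 there, against -0.01 to 0.24 in the other libraries. Control replicate 2 was highest in 3 of 15 endothelial and 1 of 6 bile duct cell markers, and its summed endothelial markers, 426 CPM, were the lowest of the controls. The part of these cells in the levels of the members was not tested.

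No leukocyte or Kupffer cell marker passed in edgeR's test, of 9 and 11 tested, while 6 and 5 had an unadjusted p under 0.05, all lower, against 9.26% of all tested genes that were lower at that p, and DESeq2 called 1 in each list. The 12 leukocyte markers summed to 20.3 to 29.4 CPM in controls and 11.8 to 16.4 in knockouts, and the 11 Kupffer cell markers to 543 to 792 and 488 to 554. Markers of endothelium summed to 426 to 480 and 376 to 457 CPM, and those of bile duct cells to 37.5 to 75.0 and 56.9 to 60.2. Mesothelial markers summed to 154 to 185 and 141 to 143, most of it Krt8, which hepatocytes also express. Of the 6 tested, 4 had a positive and 2 a negative log2 fold change, with a median of 0.25. Their median deviation from the control mean was 0.72 in control replicate 2 and 0.95 in knockout replicate 3. It was -0.77 to 0.49 in the other libraries. The part of all these other cells in Vim, Tgfb1 and collagen IV, which leukocytes or endothelium also express, was not tested. Across the lists of other cells edgeR's test called 3 genes, where it called 1.49% of all tested genes. They were 1 of 8 tested portal fibroblast and smooth muscle, 1 of 15 endothelial and 1 of 9 hepatocyte markers. None was called of 6 mesothelial, 6 bile duct, 9 leukocyte and 11 Kupffer cell markers tested. Tpm2, a tropomyosin of muscle, fell from 8.20 ± 1.69 to 2.90 ± 1.06 CPM (SD, n = 3; adjusted p of 0.0358), and Lyve1, the hyaluronan receptor of sinusoidal and lymphatic endothelium, from 19.8 ± 2.56 to 8.93 ± 1.85 (adjusted p of 0.0196). Serpina1a, a hepatocyte protease inhibitor with near-identical copies, rose from 3672 ± 122 to 7045 ± 601 CPM (adjusted p of 0.0198). Each lost its call without control replicate 2, at adjusted p of 0.123, 0.0648 and 0.0711, and without knockout replicate 1 (0.13, 0.0909 and 0.0763) or 3 (0.0577, 0.0971 and 0.106). Tpm2 and Serpina1a also lost it without knockout replicate 2 (0.115 and 0.0993). Calls over all genes fell as well, from 181 to 77 without control replicate 2 and to 59, 43 and 60 without knockout replicates 1, 2 and 3.

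The signalling that acts on stellate cells was followed in 30 tested genes of the TGF-beta and PDGF pathways. None passed in edgeR's test, 4 had an unadjusted p under 0.05 (2 higher and 2 lower; 13.3%, against 18.5% of all tested genes), DESeq2 called none, and the median log2 fold change was 0.13. The smallest p belonged to Smurf1, a ubiquitin ligase that acts on SMADs and receptors, at 9.26, 11.8 and 12.7 CPM in controls against 15.7, 17.5 and 16.9 in knockouts. Its log2 fold change was 0.57 ± 0.15 (SE; edgeR's test, adjusted p = 0.103), and the adjusted p was 0.0495 without control replicate 3. Smad6, an inhibitory SMAD, had 9.53, 9.09 and 7.52 CPM against 6.88, 5.43 and 6.25, with an adjusted p of 0.165. In both genes the groups did not overlap, as in 5 of the 30 genes of the list and in 25.2% of all tested genes.

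Genes that fold, modify and process collagen numbered 25 tested. None passed in edgeR's test and 3 had an unadjusted p under 0.05, 2 higher and 1 lower (12%, against the same 18.5%), while the median was -0.05. Serpinh1, the collagen chaperone of the endoplasmic reticulum, had 18.3, 22.3 and 11.8 CPM in control livers against 11.1, 10.5 and 9.55 in knockout livers. Its log2 fold change was -0.75 ± 0.22 (SE; edgeR's test, adjusted p = 0.121); the adjusted p was 0.0176 without control replicate 3 and 0.0496 in DESeq2, where it was the 1 gene of the list called. P3h1, a prolyl hydroxylase of collagen, had 10.4, 11.5 and 9.75 CPM against 15.3, 15.03 and 12.7, with an adjusted p of 0.156. Serpinh1 was thus lower and P3h1 higher in each knockout than in each control. Such a separation was found in 5 of the 25 genes of the list, against 25.2% of all tested genes.

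Other matrix genes, 39 tested, gave no call in edgeR's test or in DESeq2. At an unadjusted p under 0.05 there were 7 higher and 2 lower, or 23.1% of the list against 18.5% of all tested genes, and the median was 0.02. Mmp9, a gelatinase of leukocytes, had 1.01, 1.24 and 1.14 CPM in control livers against 0.32, 0.69 and 0.40 in knockout livers (adjusted p of 0.121). Postn, the matricellular protein periostin, had 11.9, 11.4 and 9.18 CPM against 15.9, 13.4 and 15.9 (adjusted p of 0.151 in edgeR's test).

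Among retinoid genes edgeR's test called 2 of 23 tested, 1 in each direction, against 1.49% of all tested genes. DESeq2 called 3, against 5.26%, and the median was 0.07. Cyp26b1, a hydroxylase that degrades retinoic acid, had 15.9, 18.0 and 20.4 CPM in control livers against 9.08, 5.14 and 6.93 in knockout livers. It fell by 1.36 ± 0.21 on the log2 scale (SE; edgeR's test, adjusted p = 0.0168). Leaving out control replicate 2 raised the adjusted p to 0.0514, and leaving out knockout replicate 2 or 3 raised it to 0.0718 or 0.0833. Ces1d, a carboxylesterase of hepatocytes that hydrolyses stored esters, had 362, 352 and 456 CPM against 705, 910 and 949. It rose by 1.13 ± 0.17 (log2, SE; edgeR's test, adjusted p = 0.0170), and the adjusted p was 0.0691, 0.0963 and 0.0861 without the same libraries. Ces1d belongs to a family of similar genes among which the counting may divide reads. Both genes, named because they were called, thus separated the genotypes in every library, while Lrat, which makes the stored ester, did not. The groups did not overlap in 5 of the 23 retinoid genes, against 25.2% of all tested genes.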

How the data were processed

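Oligo(dT)-selected RNA (per the labels' protocols) of 3 control and 3 knockout livers was sequenced in bulk. Per the submitters' processing notes, HISAT2, Bowtie2 and RSEM 1.3.1 were used on GRCm38; the sources used here do not name their order, the trimming or the strand setting. Per the file headers, the authors deposited estimated counts, FPKM and TPM per gene and library, group means of these, and their own comparison, which holds log2 fold changes, p-values and q-values. Columns were matched by group and number; they call the controls wild type.

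Estimated counts were rounded to whole numbers (4.55% to 4.98% of values per library differed by over 0.01). Genes were filtered with filterByExpr, scaled with TMM factors and tested with edgeR 4.0.16 (R 4.3.3) by the quasi-likelihood F test, with Benjamini-Hochberg adjustment over all 12173 genes. SE and 95% intervals come from the F statistic. A count of 0 allows 3 counts, 0.155 to 0.201 CPM. The libraries had PCR copies and no molecular identifiers are named, so intervals of count ratios and floors hold counting error alone. Every pair of libraries differed beyond sampling noise (smallest chi-square over degrees of freedom, 18.9).

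The members and lists were chosen with earlier results of these data known. All members are named; from pathway lists, the called genes or else the 2 with the smallest p, and from lists of other cells the called genes, besides marker values given beside a result. Alternatives were other scalings, filters, DESeq2 1.42.0, limma 3.58.1 on log2(FPKM + 1) and log2(FPKM + 0.1), a replicate block, leaving out 1 library at a time, and, chosen after seeing the data, a correction of each library for transcript length and GC. The script was tested on simulated data.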

Additional observations from a re-analysis of the deposited data

How the results depend on the processing

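No member was called under any alternative run. The number of genes called overall was 330 without a low-count filter, 634 with DESeq2, 110 on log2(FPKM + 1), 312 with the length and GC trend removed, and 43 to 668 with 1 library left out (361, 77 and 668 without control replicates 1, 2 and 3, and 59, 43 and 60 without knockout replicates 1, 2 and 3). With the replicate number as a block it was 87, and Tpm2 and Serpina1a lost their call in edgeR's test under the block (adjusted p of 0.0993 and 0.08). Same-numbered libraries deviated with r of -0.16, -0.079 and -0.076 across genes. The labels do not state that the numbers pair samples, and these values cannot settle whether they do. Medians of the 3 groups moved by less than the spread between libraries.

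Some members, none of them called, changed sign. With upper-quartile scaling Pdgfrb was -0.0261, Tgfb1 -0.0302, Col6a1 -0.0172, Sparc -0.0149 and Timp3 -0.0261. On log2(FPKM + 1) they were -0.0204, -0.0327, -0.0225, -0.00585 and -0.0352, and on log2(FPKM + 0.1) -0.0276, -0.0344, -0.0304, -0.00564 and -0.0415. With the length and GC trend removed Pdgfrb was -0.0311, Ecm1 0.0139, Col6a3 -0.0114, Col14a1 -0.0113 and Timp3 -0.0661, and with the replicate block Col1a2 was 0.0333. With 1 library left out, Lrat ran from -0.423 to 0.0623, Pdgfrb from -0.112 to 0.129, Hgf from -0.16 to 0.725, Ecm1 from -0.16 to 0.0714, Colec11 from -0.00729 to 0.22, Tcf21 from -0.287 to 0.137 and Tagln from -0.743 to 0.0235. Tgfb1 ran from -0.0977 to 0.12, Col1a1 from -0.224 to 0.74, Col1a2 from -0.187 to 0.3, Col3a1 from -0.053 to 0.555, Col4a1 from -0.198 to 0.0004, Col6a1 from -0.0671 to 0.172, Col6a2 from -0.085 to 0.532 and Col6a3 from -0.07 to 0.235. Col14a1 ran from -0.0818 to 0.177, Bgn from -0.0455 to 0.273, Sparc from -0.0722 to 0.162, Mmp2 from -0.149 to 0.432, Timp2 from -0.324 to 0.223 and Timp3 from -0.0192 to 0.0659. The cause was not tested. Timp1 and Lox were limited by depth.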

Other observations

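The neighbouring proteoglycan genes Dcn and Lum form a ratio that was singled out after its values were seen. Neither gene was called, at adjusted p of 0.707 and 0.278 in edgeR's test. The TPM ratio of Dcn to Lum was 43.4, 30.4 and 40.4 in control livers against 26.0, 23.1 and 20.4 in knockout livers, and the groups did not overlap. In the other TPM ratios computed, all of collagen genes, the groups overlapped. No test was run on any ratio.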
